A study of Mus musculus with 4 samples.

Results

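Secondary granule and late neutrophil genes were examined in leukemic stem cells (LSCs) of a mouse model of acute myeloid leukemia (AML). The group holds 10 genes out of 17104 genes in the expression table. These genes were chosen by their role in neutrophil maturation, with earlier results of these data known. They are Ltf, Camp, Ngp and Lcn2, which encode proteins of the secondary (specific) granule, S100a8 and S100a9, which encode the subunits of calprotectin, Mmp8 and Mmp9, which encode secreted metalloproteinases, Cebpe, which encodes a transcription factor, and Ly6g, which encodes a surface antigen. All 10 were in the table, and all 10 passed the filter for testing, a mean of at least 1 FPKM (fragments per kilobase of gene, scaled to library depth), which 6761 genes met.

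The study asked what the loss of CD37, a tetraspanin of the leukocyte membrane, changes in these leukemias. Lineage-negative bone marrow cells of CD37 fl/fl mice carrying Cre recombinase, driven in all cells and switched on by tamoxifen, were infected with a retrovirus for the fusion oncogene MLL-AF9 and the marker YFP. CD37 -/- stands for the leukemias after tamoxifen and CD37 fl/fl for those after corn oil, so both groups carried the floxed alleles, Cre and MLL-AF9, and tamoxifen itself was given to 1 group. RNA came from YFP+, c-kit+ bone marrow cells of male C57 mice 6 weeks after the secondary transplantation, with 2 libraries of each genotype. The recipients of the leukemia kept their own Cd37. The labels do not say whether a library was 1 animal or a pool, nor the age of the mice, so p-values measure the spread between these libraries, which may be technical.

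Neutrophils build their granules in sequence. Primary granules, with elastase, cathepsin G and myeloperoxidase, form in promyelocytes, secondary granules, with lactoferrin, cathelicidin and lipocalin, form in myelocytes, and gelatinase granules, with Mmp9, form later. Cebpe is required for the secondary granule program, and MLL-AF9 leukemias arise from myeloid progenitors that can keep part of this program.

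The bases upstream of the members' starts are shown as a description, and their part in the levels of the members was not tested. RefSeq promoters of GRCm38.p6 were at hand for 8 of the 10 genes (9 promoters, with 2 for Ly6g), all but Cebpe and Mmp9. In the 250 bases before each start, TTGCNNAA, a form of the motif bound by C/EBP factors, was searched on both strands. At least 1 match lay in 6 of the 9 promoters (those of Ngp, Ltf, Mmp8, Lcn2, S100a9 and 1 of Ly6g), while 9.56% of all 32851 promoters of this length held one. A match is a description of these letters, not a binding site, and the motif was chosen with results of these data known. The 3 promoters with the matches nearest to the start are printed together with that of Camp, which had none although Camp differed most between libraries. They lie 5′ to 3′ at chr9:110419558-110419807, plus strand (Ngp), chr9:111019042-111019291, plus strand (Ltf), chr9:7558179-7558428, plus strand (Mmp8) and chr9:109849457-109849706, minus strand (Camp), with the match in capitals.
Ngp: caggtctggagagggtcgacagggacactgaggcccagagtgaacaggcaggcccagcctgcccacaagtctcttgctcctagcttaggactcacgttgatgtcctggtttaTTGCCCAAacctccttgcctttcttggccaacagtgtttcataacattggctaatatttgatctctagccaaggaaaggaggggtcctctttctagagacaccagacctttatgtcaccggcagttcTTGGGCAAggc
Ltf: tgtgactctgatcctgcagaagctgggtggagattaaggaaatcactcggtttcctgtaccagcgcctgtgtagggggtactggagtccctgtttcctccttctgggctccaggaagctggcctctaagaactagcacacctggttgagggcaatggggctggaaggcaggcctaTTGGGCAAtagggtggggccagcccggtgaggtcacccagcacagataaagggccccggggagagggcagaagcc
Mmp8: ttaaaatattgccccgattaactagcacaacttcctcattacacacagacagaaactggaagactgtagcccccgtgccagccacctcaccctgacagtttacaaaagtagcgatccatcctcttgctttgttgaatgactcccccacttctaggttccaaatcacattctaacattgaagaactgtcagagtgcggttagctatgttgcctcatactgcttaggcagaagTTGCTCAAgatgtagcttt
Camp: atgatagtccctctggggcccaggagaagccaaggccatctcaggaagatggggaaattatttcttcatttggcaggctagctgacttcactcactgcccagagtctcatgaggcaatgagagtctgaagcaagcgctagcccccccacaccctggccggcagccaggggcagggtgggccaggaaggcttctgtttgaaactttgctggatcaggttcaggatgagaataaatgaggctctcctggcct
Starts here are those of RefSeq. The first base of the nearest match lay 11 bases before the start in Ngp, 19 bases in Mmp8 and 75 bases in Ltf. Ngp held another match 138 bases before its start. GENCODE M21 places some starts elsewhere. There Ngp starts at 110419747 on chromosome 9, so its match nearest to the RefSeq start lies inside the M21 gene, as does that of Lcn2. The printed bases of Ltf and Camp also reach into their M21 genes. In S100a9, Ly6g and Lcn2 the match was at least 216 bases away. On chromosome 9, Camp, Ngp and Ltf followed each other with 570 kb between Camp and Ngp and 596 kb between Ngp and Ltf in GENCODE M21 on GRCm38, and Mmp8 was on the same chromosome. S100a8 and S100a9 were 22.6 kb apart on chromosome 3.

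Library depth, recovered from the steps between low values, lay between 15139063 and 22562837 reads. Cd37, the deleted gene, had 56.6 and 46.8 FPKM in CD37 fl/fl replicates 1 and 2, and 23.2 and 22.9 FPKM in CD37 -/- replicates 1 and 2. The loxP sites flank only some of its exons, while FPKM counts reads over the whole gene. These values therefore do not measure how complete the deletion was. YFP and c-kit defined the sort, and further genes of such leukemic cells were measured. Hoxa9, a target of MLL fusions, was even at 38.8, 42.4, 47.2 and 42.0 FPKM in the same order of libraries. Kit, which encodes c-kit, had 0.170, 0.325, 0.327 and 0.434 FPKM, from 213, 460, 474 and 804 reads. It was thus low but present in all 4 libraries, with CD37 fl/fl replicate 2 just below CD37 -/- replicate 1. Ptprc, the pan-leukocyte antigen CD45, had 0.765, 0.841, 1.78 and 2.93 FPKM and was higher in both CD37 -/- libraries, as was Meis1, a cofactor of Hoxa9, with 0.512, 0.573, 0.884 and 0.851 FPKM. Cd34, which marks many stem cells, had at most 16 reads in a library. The deposited FPKM were computed with the whole span of the gene, introns included, so levels of different genes are compared here only after recomputing FPKM with exon length. CD37 fl/fl replicate 2 stood apart in the 10 genes, and the members' results are given with and without it.

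All 10 members were detected in all 4 libraries, at very different levels. In exon-length FPKM, averaged over the 4 libraries, S100a9 had 16642, S100a8 11896, Ngp 3286, Camp 2201, Lcn2 324, Cebpe 303, Ltf 85.7, Ly6g 56.0, Mmp9 54.1 and Mmp8 15.0. S100a8, Ngp and Camp kept this order in all 4 libraries, as did Camp over Lcn2, Cebpe over Ltf and Mmp9 over Mmp8. Neighbours that changed places were S100a9 and S100a8 (S100a9 higher in 3 of 4 libraries), Lcn2 and Cebpe (2 of 4), Ltf and Ly6g (Ltf higher in 3 of 4), and Ly6g and Mmp9 (Ly6g higher in 1 of 4). The smallest read number was 138 for Mmp8 in CD37 fl/fl replicate 2, with an exact 95% Poisson interval from 116 to 163 reads that covers counting error only.

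**Figure D1:**
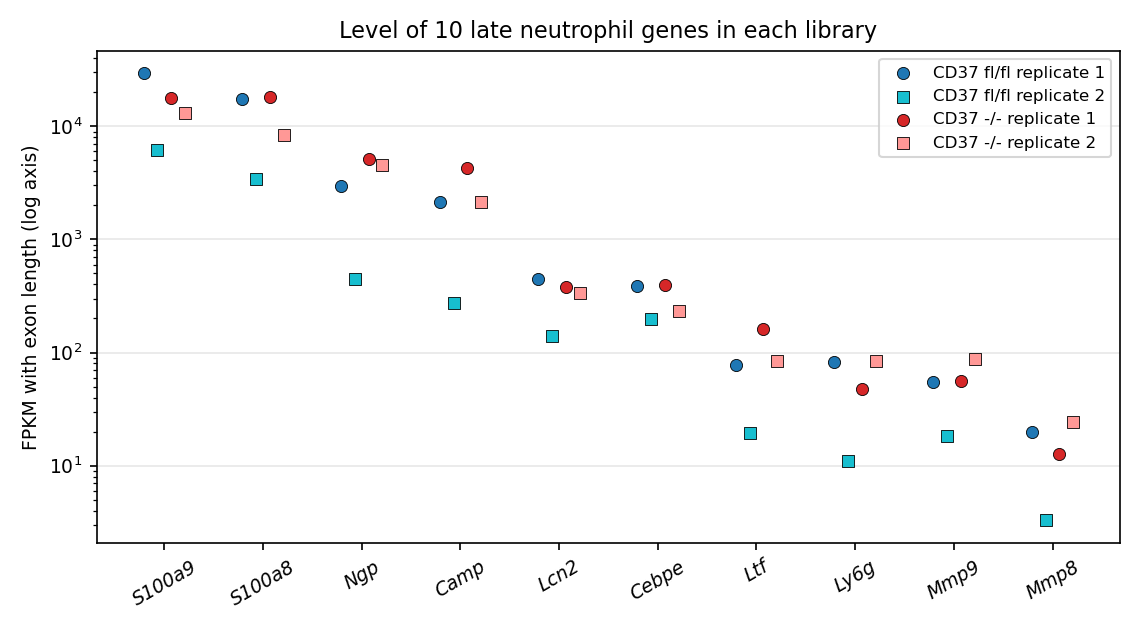
FPKM computed with exon length (log axis) of the 10 genes in each of the 4 libraries, 1 point per library, sorted by their mean. In each of the 10 genes the lowest point is CD37 fl/fl replicate 2, and S100a9 and S100a8 have the highest means, 16642 and 11896.

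The secondary granule genes were low in CD37 fl/fl replicate 2 and high in the other 3 libraries. Camp, which encodes the antimicrobial cathelicidin, had 731 and 93.7 FPKM in CD37 fl/fl replicates 1 and 2 and 1437 and 718 FPKM in CD37 -/- replicates 1 and 2. CD37 fl/fl replicate 1 thus lay just above CD37 -/- replicate 2, so the groups overlapped. Ngp, neutrophilic granule protein, had 1108 and 167 FPKM in CD37 fl/fl LSCs against 1940 and 1703 FPKM in CD37 -/- LSCs, and the groups did not overlap. Ltf, lactoferrin, which binds iron, had 11.5 and 2.87 FPKM in CD37 fl/fl LSCs against 23.7 and 12.3 FPKM in CD37 -/- LSCs. These groups did not overlap either, but CD37 fl/fl replicate 1 was only just below CD37 -/- replicate 2. Lcn2, which encodes a lipocalin that captures bacterial siderophores, had 321 and 101 FPKM in CD37 fl/fl LSCs against 273 and 244 FPKM in CD37 -/- LSCs. Its highest and its lowest value were both in CD37 fl/fl, with the CD37 -/- libraries in between.

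Differences were computed on log2(FPKM + 1), which makes changes of low genes look smaller than they were. The difference of CD37 -/- minus CD37 fl/fl LSCs was largest in this group for Ngp, with a log2 fold change of 2.08 (standard error 0.85, 95% interval from -0.02 to 4.17). Camp followed with 1.95 (standard error 0.95, interval from -0.41 to 4.31) and Ltf with 1.38 (standard error 0.60, interval from -0.10 to 2.86). For Lcn2 the log2 fold change was 0.52, with an interval from -0.86 to 1.89. By limma with Benjamini-Hochberg adjustment over the 6761 genes, the adjusted p was 0.209 for Ngp, 0.222 for Ltf, 0.262 for Camp and 0.582 for Lcn2. None of these differences passed the threshold of 0.05. With CD37 fl/fl replicate 2 left out, these values were 0.71 for Ngp, 0.54 for Ltf, 0.47 for Camp and -0.32 for Lcn2.

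The calprotectin genes S100a8 and S100a9, whose proteins form a calcium- and zinc-binding complex in the neutrophil cytosol, were by far the most abundant members. S100a8 had 11446 and 2263 FPKM in CD37 fl/fl LSCs against 11952 and 5552 FPKM in CD37 -/- LSCs. S100a9 had 4993 and 1052 FPKM in CD37 fl/fl LSCs against 2978 and 2223 FPKM in CD37 -/- LSCs. Both CD37 -/- values of S100a9 lay between those of the CD37 fl/fl libraries, and for S100a8 the 2 replicates 1 were nearly level. Their joint share of reads was 2.75% and 0.565% in CD37 fl/fl LSCs against 2.18% and 1.27% in CD37 -/- LSCs. The share of all 10 members was 3.50% and 0.716% in CD37 fl/fl LSCs against 3.37% and 2.18% in CD37 -/- LSCs. For S100a8 the log2 fold change was 0.68 (interval from -1.31 to 2.67), and for S100a9 it was 0.17 (interval from -1.62 to 1.95). The ratio of the mean FPKM of S100a9, CD37 -/- over CD37 fl/fl, was 0.860, so its direction differed between the mean of FPKM and the mean of log2 values. The adjusted p (limma, Benjamini-Hochberg adjustment) was 0.618 for S100a8 and 0.903 for S100a9.

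The ratio between the calprotectin subunits varied less over the libraries than their joint share. S100a8 over S100a9, in exon-length FPKM, was 0.590 and 0.554 in CD37 fl/fl LSCs against 1.03 and 0.643 in CD37 -/- LSCs. Camp over Ngp was 0.729 and 0.622 in CD37 fl/fl LSCs against 0.819 and 0.466 in CD37 -/- LSCs. Both pairs thus kept their ratio between the CD37 fl/fl libraries while each gene differed there by at least 4.75-fold, and the ratios differed more between the CD37 -/- libraries.

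Mmp8, Mmp9 and Ly6g were highest in CD37 -/- replicate 2, unlike the other 7 members. Mmp8, neutrophil collagenase, had 4.81 and 0.794 FPKM in CD37 fl/fl LSCs against 3.03 and 5.86 FPKM in CD37 -/- LSCs. Mmp9, gelatinase B, had 12.9 and 4.26 FPKM in CD37 fl/fl LSCs against 13.04 and 20.5 FPKM in CD37 -/- LSCs. The Mmp9 groups did not overlap, but CD37 fl/fl replicate 1 and CD37 -/- replicate 1 were almost level. Ly6g, the antigen that defines mouse neutrophils in flow cytometry and a member of the Ly6 family of related genes, had 19.9 and 2.66 FPKM in CD37 fl/fl LSCs against 11.5 and 20.2 FPKM in CD37 -/- LSCs. Again the lone low library was CD37 fl/fl replicate 2. Log2 fold changes were 0.70 for Mmp8 (interval from -0.71 to 2.12), 1.02 for Mmp9 (interval from -0.20 to 2.24) and 0.90 for Ly6g (interval from -1.07 to 2.87). Their adjusted p-values (limma, Benjamini-Hochberg adjustment) were 0.465, 0.259 and 0.501.

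Cebpe varied least among the members. It had 267 and 136 FPKM in CD37 fl/fl LSCs against 268 and 158 FPKM in CD37 -/- LSCs, so that both replicates 1 were high and both replicates 2 were low. The log2 fold change was 0.11 (standard error 0.44, interval from -0.99 to 1.21), and the adjusted p was 0.896 by limma with Benjamini-Hochberg adjustment. Camp over Cebpe, in exon-length FPKM, was 5.53 in CD37 fl/fl replicate 1 and 1.39 in replicate 2, against 10.8 and 9.17 in the CD37 -/- libraries. Camp was therefore low in CD37 fl/fl replicate 2 also relative to Cebpe.

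**Figure D2:**
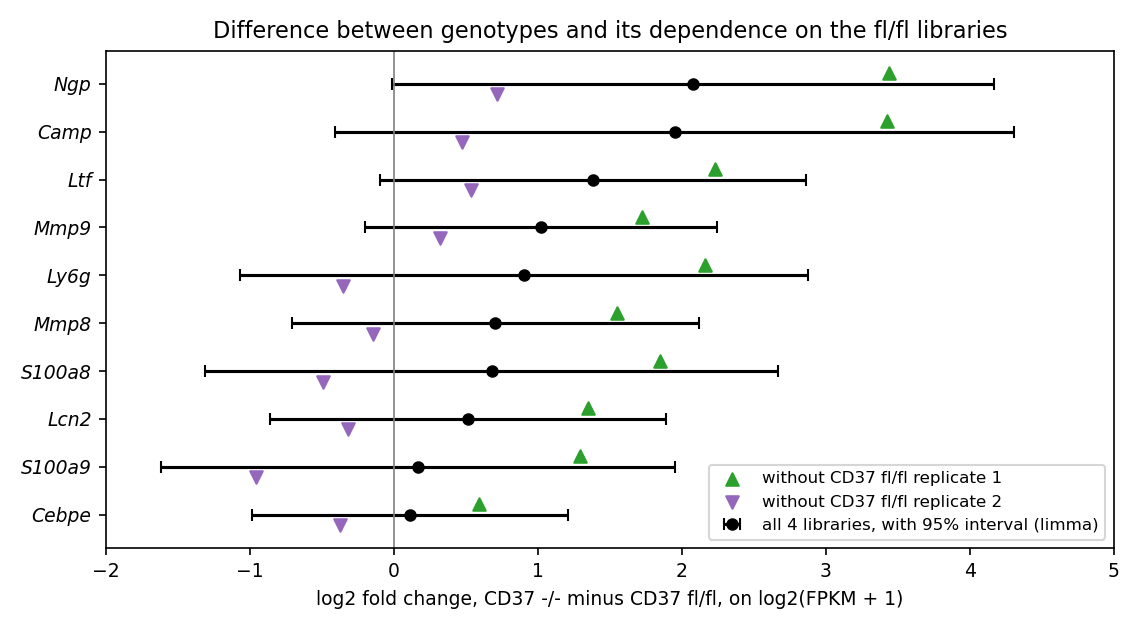
Log2 fold change of CD37 -/- minus CD37 fl/fl LSCs on log2(FPKM + 1) for each gene: black points with 95% limma intervals from all 4 libraries, green triangles without CD37 fl/fl replicate 1 and purple triangles without replicate 2. All 10 intervals include 0, and the purple triangles lie below 0 for 6 genes.

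At an adjusted p under 0.05, 0 of the 10 members differed between the genotypes in the limma fit with Benjamini-Hochberg adjustment (background 0.0% of the tested genes). At an unadjusted p under 0.05 it was also 0 of 10, where 24.0% of all tested genes were called. Both CD37 -/- libraries were above both CD37 fl/fl libraries for 3 members, Ltf, Ngp and Mmp9 (background 38.2%), and below them for 0 members (background 23.7%). The log2 fold change was above 0 for all 10 (background 58.8%), with a median of 0.80 against 0.11 over all tested genes. Other scalings moved the median of all tested genes to 0.49 (TPM rescaling), 0.25 (voom) and -0.02 (quantile normalization), and all 10 members stayed above 0 under each of these. They did not stay so without CD37 fl/fl replicate 2: the median of the members was then -0.23, 4 of 10 were above 0, and 0 had an unadjusted p under 0.05 (background 20.3%). With CD37 fl/fl replicate 1 left out, the members had a median of 1.79, and 9 of them, all but Cebpe, had an unadjusted p under 0.05 (background 16.6%), with 0 at an adjusted p under 0.05. Other settings, with all 4 libraries, gave 4 members at an unadjusted p under 0.05 with TPM rescaling (background 33.4%) and with voom (25.3%), 2 with exon length (25.0%), 2 of 9 with a stricter filter of 5 FPKM (24.2%) and 1 with quantile normalization (21.5%). Without CD37 -/- replicate 1 the number was 0 (23.6%), and without CD37 -/- replicate 2 it was 1 (12.0%). Which CD37 fl/fl library was kept thus set the direction of Lcn2, S100a8, S100a9, Mmp8, Cebpe and Ly6g.

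The larger difference lay between the CD37 fl/fl libraries themselves. All 10 members were lowest in CD37 fl/fl replicate 2, as were 21.9% of all tested genes. In 9 of 10, all but Cebpe, replicate 2 was the lowest library and at least 1 below replicate 1 on log2(FPKM + 1), which held for 2.48% of all tested genes. As ratios of FPKM, replicate 1 over replicate 2 was 7.80 for Camp, 7.48 for Ly6g, 6.65 for Ngp, 6.05 for Mmp8, 5.06 for S100a8, 4.75 for S100a9, 4.01 for Ltf, 3.19 for Lcn2, 3.04 for Mmp9 and 1.96 for Cebpe. Granule, calprotectin, metalloproteinase and surface antigen genes were thus all at least 3.04-fold higher in replicate 1, and the transcription factor had the smallest gap. On the log2 scale the median difference of replicate 1 minus replicate 2 was 1.97 for the members (from 0.96 to 2.95) and -0.09 for all tested genes, of which the median absolute difference was 0.25. These values describe 2 libraries and carry no test.

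In the CD37 -/- libraries the members did not move as 1 block. Replicate 1 over replicate 2 was 2.15 for S100a8, 2.00 for Camp, 1.93 for Ltf, 1.69 for Cebpe and 1.34 for S100a9. It was 1.14 for Ngp and 1.12 for Lcn2, which were nearly even. It was below 1 for Mmp9 (0.635), Ly6g (0.571) and Mmp8 (0.518). The median log2 difference was 0.30 (from -0.77 to 1.11), against -0.01 over all tested genes. The highest library was CD37 -/- replicate 1 for Ltf, Camp, Ngp, S100a8 and Cebpe (background 16.6%), CD37 -/- replicate 2 for Mmp8, Mmp9 and Ly6g (background 38.4%) and CD37 fl/fl replicate 1 for Lcn2 and S100a9 (background 18.8%). Ly6g over Ltf, in exon-length FPKM, was accordingly 0.295 in CD37 -/- replicate 1 and 0.999 in replicate 2, with 1.05 and 0.562 in the CD37 fl/fl libraries.

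**Figure D3:**
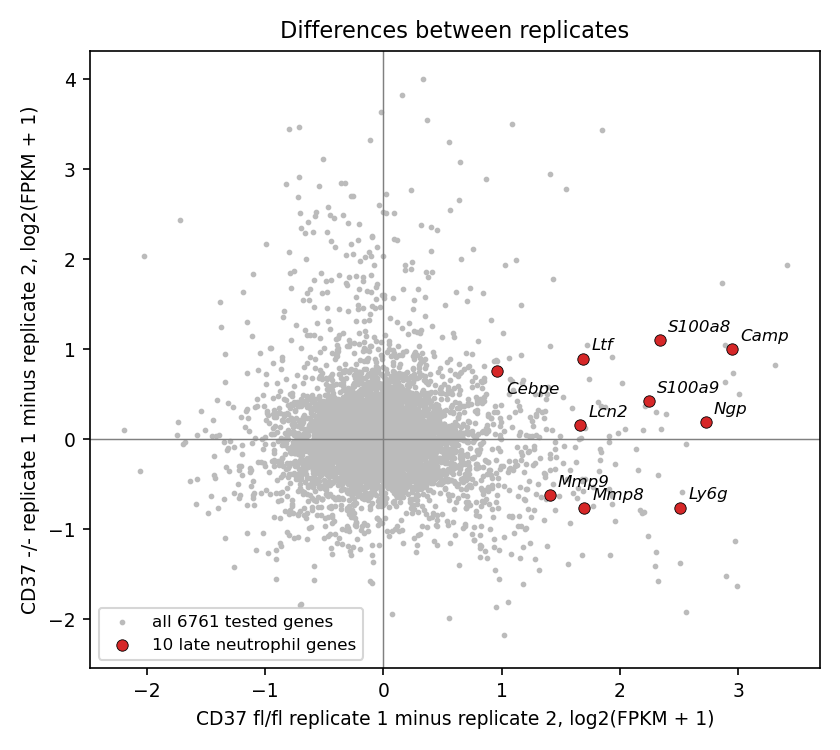
Difference of replicate 1 minus replicate 2 on log2(FPKM + 1) in CD37 fl/fl (x axis) and CD37 -/- libraries (y axis), for all 6761 tested genes (grey) and the 10 members (red). The members lie between 0.96 and 2.95 on the x axis and on both sides of 0 on the y axis, from -0.77 to 1.11.

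Other genes of the neutrophil program were taken from lists, and no listed gene had an adjusted p under 0.05 (limma, Benjamini-Hochberg adjustment). Counts in this and the next paragraphs are at an unadjusted p, for which 16.1% of the tested genes were higher and 7.96% lower after CD37 loss. Of 12 further genes for specific granule and secreted proteins, 11 were tested, of which 0 were higher and 1 was lower, with a median log2 fold change of 0.13, which turned to -0.47 without CD37 fl/fl replicate 2. Replicate 2 of CD37 fl/fl was the lowest library for 8 of the 11, and the median difference of replicate 1 minus replicate 2 in CD37 fl/fl was 1.13. Cd177, a neutrophil surface protein stored in specific granules, had 60.5 and 14.8 FPKM in CD37 fl/fl LSCs against 70.8 and 85.6 FPKM in CD37 -/- LSCs. Chil3, a chitinase-like secreted protein, had 159, 50.4, 95.0 and 139 FPKM and Cyba, a subunit of the NADPH oxidase in the granule membrane, had 198, 94.2, 150 and 106 FPKM in the same order. Hp, haptoglobin, differed from them in that CD37 fl/fl replicate 1 alone was high, with 1263, 752, 730 and 684 FPKM. Slpi, a protease inhibitor named after its values were seen, was the lower gene and ran opposite to the members, with 17.3 and 75.2 FPKM in CD37 fl/fl LSCs against 6.50 and 8.57 FPKM in CD37 -/- LSCs.

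Of the late neutrophil surface and cytosol genes, 17 were tested, with 4 higher and 0 lower in CD37 -/- LSCs (median log2 fold change 0.70). For 16 of the 17 the lowest library was CD37 fl/fl replicate 2, and the median of replicate 1 minus replicate 2 in CD37 fl/fl was 1.17. Those with the highest deposited FPKM were Ifitm6, Stfa1, Ncf4 and Stfa2. Ifitm6 had 166 and 31.8 FPKM in CD37 fl/fl LSCs against 100 and 91.9 FPKM in CD37 -/- LSCs, and Ncf4, a cytosolic subunit of the NADPH oxidase, had 41.9, 20.6, 40.6 and 36.6 FPKM. Stfa1 and Stfa2, stefins that share sequence with each other so that their reads may be split between them, had 66.3, 8.11, 130 and 62.4 FPKM and 30.7, 2.93, 32.7 and 22.9 FPKM. The 4 higher genes, named after their values were seen, were Ncf1, Itgb2, Cxcr2 and Trem1. Ncf1, another NADPH oxidase subunit, differed from the members in that the CD37 fl/fl libraries were level, with 4.50 and 4.64 FPKM against 14.7 and 28.3 FPKM, and its log2 fold change was 1.96 also without CD37 fl/fl replicate 2. Itgb2, the common beta subunit of leukocyte integrins, had 5.08 and 3.56 FPKM in CD37 fl/fl LSCs against 12.0 and 17.2 FPKM in CD37 -/- LSCs. Cxcr2, the receptor of neutrophil chemokines, had 5.81 and 1.13 FPKM against 6.73 and 17.8 FPKM, so that it was close to level in both replicates 1. Without CD37 fl/fl replicate 2 the list's median was 0.02, and 2 of the 4 calls held.

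Most transcription factors of granulocytes did not share the gap between the CD37 fl/fl libraries. Of 8 listed, 7 were tested, with 1 higher and 0 lower, a median log2 fold change of 0.18 (-0.06 without CD37 fl/fl replicate 2) and a median difference of 0.25 between the CD37 fl/fl libraries, and 3 of the 7 were lowest in CD37 fl/fl replicate 2. Gfi1, a repressor needed for neutrophil maturation, was the higher gene, with 16.5 and 19.3 FPKM in CD37 fl/fl LSCs against 43.5 and 43.4 FPKM in CD37 -/- LSCs. Its log2 fold change of 1.24 (standard error 0.23) had an adjusted p of 0.0855 by limma with Benjamini-Hochberg adjustment, and was 1.34 without CD37 fl/fl replicate 2. Cebpa, which starts the granulocyte program, had 28.1, 33.8, 40.7 and 40.3 FPKM, and Spi1, encoding PU.1, had 16.2, 11.3, 14.9 and 16.2 FPKM. Cebpb had 40.6, 33.2, 42.2 and 18.0 FPKM and Cebpd 23.2, 19.3, 29.7 and 25.9 FPKM. Irf8, a factor of the monocyte branch, had 2.35, 2.13, 0.427 and 1.84 FPKM, Klf5 had 2.35, 0.547, 1.42 and 0.960 FPKM, and Runx1 stayed below the filter with at most 0.587 FPKM.

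Genes that encode partners, inhibitors and receptors of the members' products were 8 in the table, of which 3 were tested, with 1 higher and 0 lower (median log2 fold change 0.44). Cd33, whose product binds S100A9, was the higher gene, with 6.34 and 2.53 FPKM in CD37 fl/fl LSCs against 14.2 and 18.6 FPKM in CD37 -/- LSCs, a log2 fold change of 1.76 (standard error 0.38) and an adjusted p of 0.104 by limma with Benjamini-Hochberg adjustment. Without CD37 fl/fl replicate 2 its log2 fold change was 1.23. Plaur, the urokinase receptor, had 7.50, 6.56, 8.72 and 11.1 FPKM, and Ager, the receptor for advanced glycation end products, which binds S100 proteins, had 4.43, 2.80, 2.80 and 2.76 FPKM.

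Primary granule genes, which precede the members in maturation, were divided. In CD37 fl/fl, replicate 1 minus replicate 2 lay between -1.75 and 1.22 on log2(FPKM + 1), with a median of -0.16. Of 6 tested genes, 2 were lower and 0 higher in CD37 -/- LSCs (median log2 fold change -0.75, or -0.58 without CD37 fl/fl replicate 2, where 1 of these calls held), and 1 of 6 was lowest in CD37 fl/fl replicate 2. Elane, neutrophil elastase, was even, with 1750 and 1844 FPKM in CD37 fl/fl LSCs against 1884 and 1760 FPKM in CD37 -/- LSCs. Ctsg, cathepsin G, was highest where the members were lowest, with 403 and 1357 FPKM in CD37 fl/fl LSCs against 375 and 362 FPKM in CD37 -/- LSCs. Prtn3, proteinase 3, had 411, 489, 307 and 256 FPKM and Ms4a3, a marker of granulocyte-monocyte progenitors, had 152, 201, 102 and 95.6 FPKM. The lower genes were Ms4a3 and, named after its values were seen, Mpo, myeloperoxidase, with 80.3 and 51.6 FPKM in CD37 fl/fl LSCs against 34.4 and 20.8 FPKM in CD37 -/- LSCs. Camp over Elane, in exon-length FPKM, was 0.617 and 0.0750 in CD37 fl/fl LSCs against 1.13 and 0.602 in CD37 -/- LSCs, whereas Ctsg over Elane was 0.3002 and 0.959 against 0.259 and 0.268. Relative to Elane, CD37 fl/fl replicate 2 was low in Camp and high in Ctsg.

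**Figure D4:**
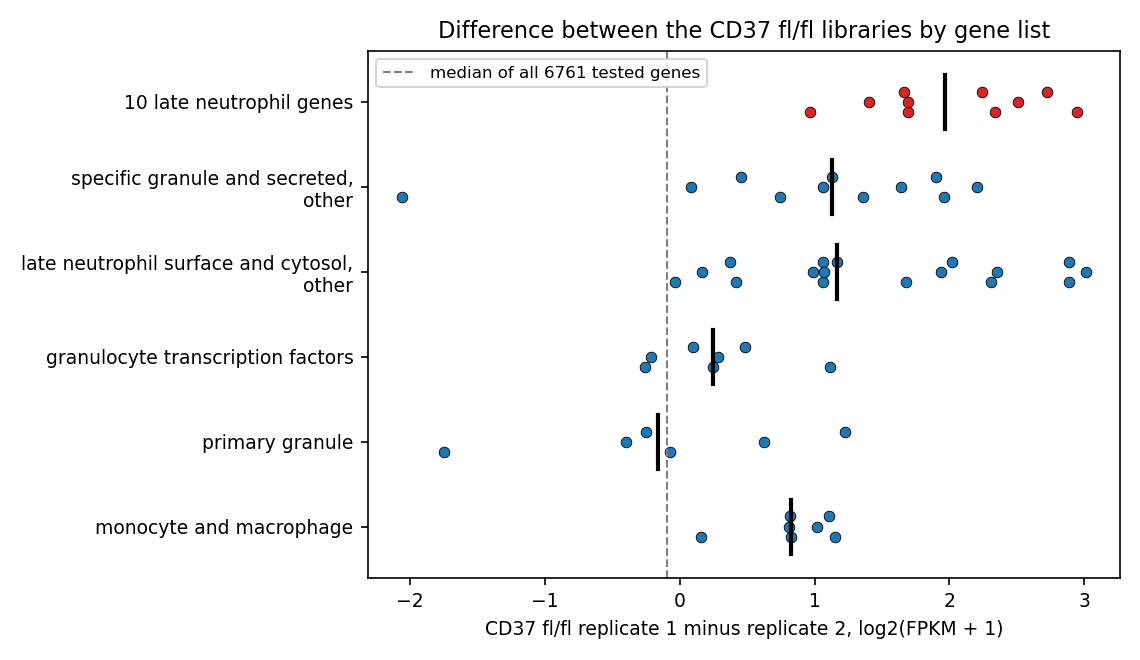
Difference of CD37 fl/fl replicate 1 minus replicate 2 on log2(FPKM + 1), 1 point per tested gene and a black bar at each list's median, with the median of all 6761 tested genes as a dashed line. The median is 1.97 for the 10 members, 1.13 and 1.17 for the other granule and late neutrophil lists, 0.25 for transcription factors, -0.16 for primary granule genes and 0.83 for monocyte genes.

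Markers of other cell types were measured because a sorted fraction can hold more than 1 cell type, and in bulk RNA fewer cells of a type and less RNA per cell cannot be told apart. The 4 tested erythroid genes, all globins, were lowest in CD37 fl/fl replicate 2 like the members, and all 4 were higher in CD37 -/- LSCs. Without that library 2 of these 4 calls held, and the median log2 fold change went from 3.35 to 2.55. The summed exon-length FPKM of the 7 erythroid genes was 90.0 and 8.19 in CD37 fl/fl LSCs against 917 and 237 in CD37 -/- LSCs, with none of them at 0 in a library. The erythroid sum thus ranked the CD37 fl/fl libraries as the members did, but differed far more between the genotypes. Of 7 tested monocyte and macrophage genes, 0 were higher and 0 were lower (median log2 fold change 0.08, or -0.33 without CD37 fl/fl replicate 2), 5 were lowest in CD37 fl/fl replicate 2, and their median difference between the CD37 fl/fl libraries was 0.83. Of the 4 with the highest deposited FPKM, Ly6c2 had 166, 149, 196 and 201 FPKM, Cd68 135, 75.7, 47.7 and 94.1 FPKM, Mpeg1 between 8.07 and 48.6 FPKM, and Ccr2 6.24, 3.11, 2.67 and 8.10 FPKM. The summed exon-length FPKM of the 10 monocyte and macrophage genes was 524 and 361 in CD37 fl/fl LSCs against 387 and 560 in CD37 -/- LSCs. Their part, and that of the erythroid genes, in the course of the members was not tested.

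Both eosinophil genes in the table were, like the members, lowest in CD37 fl/fl replicate 2. Prg2, the eosinophil major basic protein, had 23.4 and 3.15 FPKM in CD37 fl/fl LSCs against 31.7 and 32.9 FPKM in CD37 -/- LSCs, and Epx, eosinophil peroxidase, had 1.10 and 0.185 FPKM against 1.72 and 2.96 FPKM, with 1 of these 2 genes (Epx) higher, a call that was lost without CD37 fl/fl replicate 2. Of the 4 basophil and mast cell genes, Mcpt8 and Gata2 were higher in CD37 fl/fl replicate 2, with 4.87 and 13.8 FPKM for Mcpt8 and 0.288 and 2.75 FPKM for Gata2, against 12.0 and 5.74 FPKM and 0.176 and 0.195 FPKM in CD37 -/- libraries. Cpa3, with 38 reads in CD37 fl/fl replicate 1 and 5 in replicate 2, was lowest where the members were lowest. It differed from them in that CD37 fl/fl replicate 1 alone was high, since the CD37 -/- libraries held 12 and 11 reads. Fcer1a was at 0 in both CD37 fl/fl libraries. In the B cell list Pax5 had at most 17 reads, while Cd79b was the 1 tested gene and was lower, with 12.5, 15.3, 8.02 and 6.16 FPKM. In the T and NK cell list Cd3d had at most 11 reads, and Nkg7 was the 1 tested gene and was lower, with 94.6, 118, 40.1 and 41.3 FPKM. Cd79b and Nkg7 were thus highest in the library where the members were lowest, and their part in the course of the members was not tested.

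Outside the 10 members, the genes whose course over the 4 libraries was most like their mean course were sought among 2574 protein-coding genes with a mean of at least 5 FPKM, by Euclidean distance between centred log2(FPKM + 1) values. Ltb4r1, a leukotriene B4 receptor, was nearest, at a distance of 0.285, with 68.5 and 18.4 FPKM in CD37 fl/fl LSCs against 67.4 and 51.8 FPKM in CD37 -/- LSCs. It was followed by Siglece (0.347), a sialic acid-binding receptor of myeloid cells, Stfa2l1 (0.379), Cd177 (0.531) and Pilrb2 (0.549). The members themselves lay between 0.505 (Lcn2) and 1.31 (Camp) from their mean course, so that Ltb4r1, Siglece and Stfa2l1 were closer to it than any member. With 4 libraries these distances are descriptions.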

How the data were processed

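RNA of YFP+, c-kit+ LSCs was sequenced from 2 CD37 fl/fl and 2 CD37 -/- libraries (poly(A) RNA, dUTP strand marking). The authors deposited FPKM per gene and library. The submitters' processing notes name fastp 0.20.1, STAR 2.7.7a, featureCounts 2.0.0, edgeR and the build mm39, and the strand setting is not given in the sources used here. With GENCODE M21 gene spans (GRCm38; 17045 of 17104 identifiers matched), between 98.9% and 99.0% of values came out as whole reads (tolerance 0.05), and between 9.74% and 10.1% with exon lengths. Positions of genes are therefore those of M21, and those of promoters follow RefSeq starts. Recovered reads were used for depth, shares and voom.

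Genes averaging at least 1 FPKM were tested with limma 3.58.1 (lmFit, eBayes with trend, two-sided, R 4.3.3) on log2(FPKM + 1), p-values adjusted by Benjamini-Hochberg, and a threshold of 0.05. The code was tested on simulated data. Python 3.11.15 (matplotlib 3.10.9, pandas 2.3.3, numpy 2.4.6) served for tables and plots. The 10 members and all lists were chosen with earlier results of these data known. Named genes are the members, all listed transcription factors, the 4 tested genes with the highest mean FPKM of each other list, and the 5 genes nearest to the members' mean course. Genes outside this rule are said to be named after their values were seen, except markers of other cell types, the deleted gene and the sort markers. A listed marker is not reported here. Alternatives were a pseudocount of 0.1, no filter on low genes, a filter of 5 FPKM on the mean, TPM rescaling, quantile normalization, exon length, voom (mean of at least 10 reads), eBayes without trend, a replicate block and leaving out each library.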

Additional observations from a re-analysis of the deposited data

How the results depend on the processing

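Under all 13 alternatives, 0 members passed an adjusted p of 0.05 (limma, Benjamini-Hochberg adjustment). The lowest adjusted p of a member was 0.0888, for Ltf with a replicate block. The number of members at an unadjusted p under 0.05, 0 with all 4 libraries, was 2 with a mean of at least 5 FPKM (Mmp8 was not tested), 1 with quantile normalization, 4 with TPM rescaling, 2 with exon length, 4 with voom and between 0 and 9 on leaving out 1 library (9 without CD37 fl/fl replicate 1, 1 without CD37 -/- replicate 2). Whether same-numbered libraries were paired beyond their number is not known. Their deviations from the group means had a correlation of -0.04 over all tested genes, which does not settle it for a part of the genes. With the replicate block, 3 members (Ltf, Camp and Ngp) and 1577 genes (23.3%) had an unadjusted p under 0.05, and 73 genes had an adjusted one. Members above both CD37 fl/fl libraries in both CD37 -/- libraries numbered 5 with TPM rescaling and between 3 and 10 on leaving out 1 library. The share of all tested genes in this order was computed only in the main setting (38.2%, with 3 members). TPM rescaling moved all tested genes upward (median log2 fold change 0.49), and with a library left out fewer values are compared. These counts therefore do not set the members apart from other genes. Members below both CD37 fl/fl libraries in both CD37 -/- libraries numbered 0 under each setting with all 4 libraries (23.7% of all tested genes in the main setting). The median log2 fold change of the members was between -0.23 and 1.79 on leaving out 1 library. All tested genes at an unadjusted p under 0.05 (1626) numbered 2911 with all genes above 0, 755 with a mean of at least 5 FPKM, 2639 with exon length, 3303 with voom and between 809 and 1593 on leaving out 1 library (809 without CD37 -/- replicate 2). At an adjusted p under 0.05 there were 45 genes with a mean of at least 5 FPKM and 16 with exon length. Of the calls at an unadjusted p, 66.9% were higher in CD37 -/-, against 47.5% with quantile normalization, 91.4% with TPM rescaling and 50.3% with a mean of at least 5 FPKM.

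Single genes changed sign only on leaving out 1 library. Their log2 fold changes then lay between -0.32 and 1.35 for Lcn2, -0.49 and 1.85 for S100a8, -0.96 and 1.29 for S100a9, -0.14 and 1.55 for Mmp8, -0.37 and 0.59 for Cebpe, and -0.36 and 2.16 for Ly6g. The negative values were those without CD37 fl/fl replicate 2 and, for S100a9 (-0.04) and Cebpe (-0.27), also those without CD37 -/- replicate 1. Where a group is left with 1 library, that library is assumed to vary like the other group. Ngp, Camp, Ltf and Mmp9 kept a log2 fold change above 0 under all 13 alternatives. With 2 libraries in each group, differences of the size of those between the CD37 fl/fl libraries cannot be told from the spread between replicates. Depth limits only Mmp8 and Ly6g, with 138 and 179 reads in CD37 fl/fl replicate 2.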
